A study of Arabidopsis thaliana with 6 samples.

Results

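The Aux/IAA and ARF genes encode the transcriptional core of the auxin response, and the 29 Aux/IAA genes and 12 ARF genes described here were taken by locus from a fixed list, 41 of the 33602 loci in the count files. RNA was sequenced from aerial parts of Arabidopsis thaliana seedlings of ecotype Col-0, aged 11 days, in 2 groups of 3 libraries that the series description calls biological replicates. One group was wild type. The other, snl1/2/3/4/5, was mutant for 5 of the SIN3-LIKE (SNL) genes, those numbered 1 to 5. SIN3-type proteins are scaffolds that bring histone deacetylases to genes. Day length was 16 h with 8 h of darkness for both groups, and tissue was collected at ZT5, 5 h after lights on. The nature of the 5 mutant alleles and the number of seedlings pooled in a library are not stated in the labels.

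Auxin acts by removing repressors. Aux/IAA proteins bind ARF proteins at auxin-responsive genes and recruit TOPLESS co-repressors, which in turn work with histone deacetylases. When auxin rises, the F-box receptors TIR1 and AFB hold the hormone against a short degron in domain II of an Aux/IAA protein, and the protein is destroyed. The freed ARF proteins bind short DNA elements. Class A ARFs such as ARF5, ARF6, ARF7, ARF8 and ARF19 activate their targets, while ARF1 and ARF2 and the related ARF3 and ARF4 are mostly repressors, and ARF10, ARF16 and ARF17 form a further class. Many Aux/IAA genes are themselves switched on by auxin, so the family both sets and reports the response. In shoots these genes act in leaf and vascular patterning, hypocotyl growth and the passage from juvenile to adult leaves.

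The libraries held between 12622416 and 15774357 reads. The 5 mutated SNL genes were lower in every mutant library than in any wild-type library (adjusted p between 0.000171 and 0.000213, edgeR quasi-likelihood test), and their residual reads were highest in mutant replicate 3 for SNL1 to SNL4. The falls were unequal, at 23.7-fold for SNL2, 20.2-fold for SNL3, 6.2-fold for SNL4, 2.86-fold for SNL1 and 1.89-fold for SNL5. Shoot photosynthesis markers were abundant in both groups, at a summed level of 32500 to 36460 CPM (reads scaled to a common library size) in wild type and 31000 to 37380 CPM in the mutant. Root markers were also detected although the tissue is labelled aerial, at 90.2 to 95.7 CPM in wild type and 81.9 to 110.0 CPM in the mutant summed over 10 genes, with 1 of 9 tested genes, GL2, which also acts in leaf hairs, lower. Of 6 floral organ markers, 2 passed the filter on low counts and 1, PISTILLATA (PI), was higher. Their summed level was 8.00 to 8.83 CPM in wild type and 20.2 to 35.2 CPM in the mutant. PI alone had 2.18, 2.56 and 3.64 CPM in wild type and 12.4, 15.3 and 24.9 CPM in the mutant, and SEP3 did not pass. The 4 under the filter had few reads. AP1 had 0 in all wild-type libraries and 1, 0 and 0 in the mutant, and LFY 4, 4 and 1 against 3, 5 and 2. AP3 had 2, 2 and 1 against 11, 6 and 10, and AG 0, 3 and 1 against 3, 4 and 7. Of 5 shoot meristem markers 3 were tested, of which KNAT1 was higher and CLV1 lower. Their summed level was 116 to 138 CPM in wild type and 105 to 121 CPM in the mutant, with 1 read of WUS in all. Most of this sum was CLV1, at 106 to 125 CPM in wild type and 87.9 to 100.5 CPM in the mutant. The mean of KNAT1 went from 7.80 to 13.3 CPM and that of STM, which did not pass, from 3.48 to 4.32 CPM. The part that a changed mix of organs has in the results below was not tested, and in these bulk samples fewer cells of a type and less RNA per cell cannot be told apart.

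Calls in the Aux/IAA family were mostly higher and those among the 12 listed ARF genes were split evenly. Of the 29 Aux/IAA genes, 23 passed the filter on low counts and 6 did not; among the 23, 8 rose in snl1/2/3/4/5, 1 fell and 14 did not pass the test at an adjusted p of 0.05. All 12 ARF genes passed the filter, and 3 rose, 3 fell and 6 did not pass. For comparison, 18.3% of all 19591 tested genes were called higher and 16.5% lower, 34.8% together, so the ARF shares of 25.0% in each direction and the Aux/IAA share of 34.8% higher and 4.35% lower are to be read against that background. With any 1 of the 3 wild-type libraries left out, 5 Aux/IAA genes were called higher in place of 8. The single lower Aux/IAA call became 0, and the 3 lower ARF calls became 1, without wild-type replicate 1, wild-type replicate 3 or mutant replicate 2. Over all genes, the calls fell to 2290 higher and 1757 lower without wild-type replicate 1, and to 1893 lower without mutant replicate 2. The median log2 fold change was 0.25 over the tested Aux/IAA genes and −0.02 over the ARF genes, beside 0.00027 over all tested genes. Of the tested Aux/IAA genes 17 had a positive log2 fold change and 6 a negative one. Whether the 2 families differ from each other or from other genes was not tested. IAA6 and IAA31 passed the filter through the mutant libraries alone, so their inclusion depended on the difference itself. IAA30 reached the filter's cutoff in all 3 wild-type libraries but, with 16, 15 and 6 reads in the mutant, not in every mutant library. None of these 3 genes was called. All fitted changes in both families were below 2-fold, and none of the 41 genes appears in the authors' deposited tables of higher and lower genes, whose smallest absolute log2 fold change is 1.00.

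**Figure D1:**
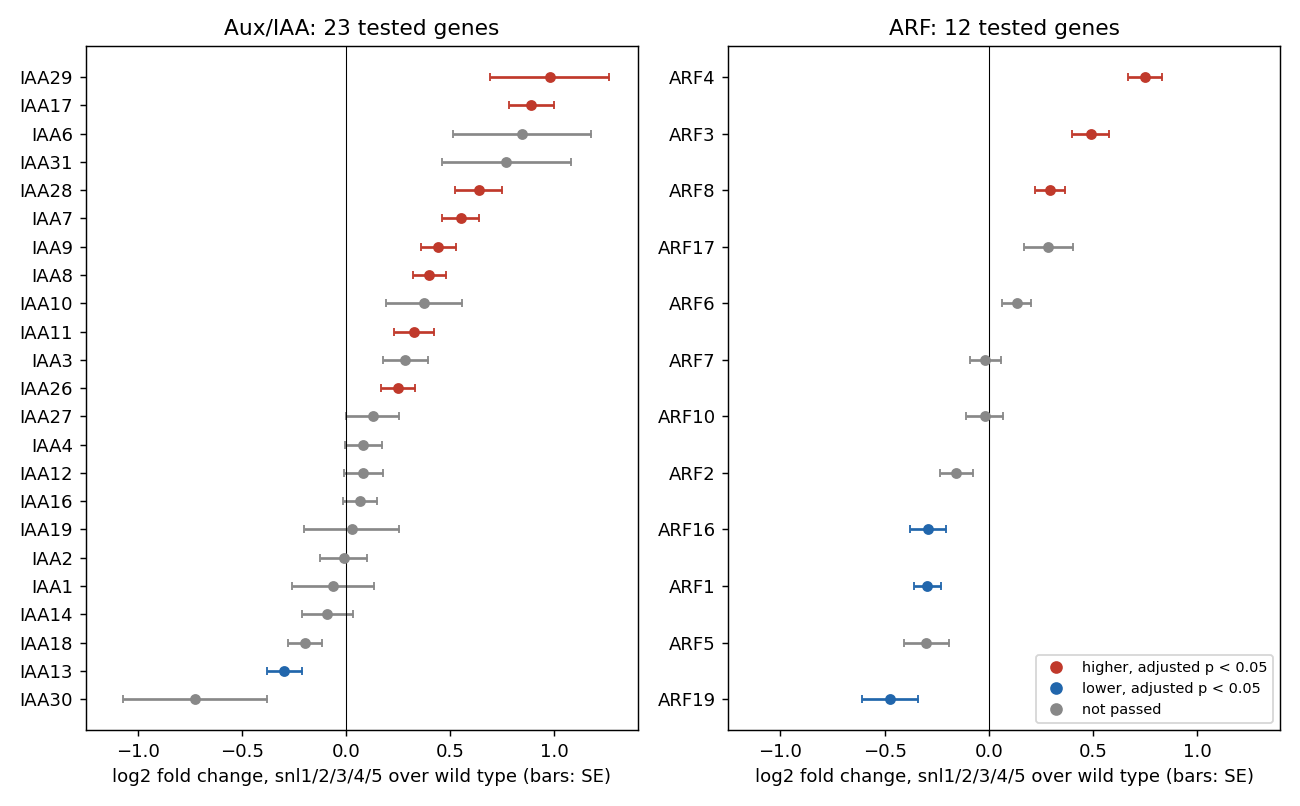
Fitted log2 fold change (mutant over wild type, horizontal axis) with its standard error for the 23 tested Aux/IAA genes (left) and the 12 ARF genes (right), coloured by call. IAA29 and IAA17 lie highest among called Aux/IAA genes at 0.98 and 0.89, IAA13 is the only one called lower at −0.30, and the ARF genes run from −0.47 for ARF19 to 0.75 for ARF4.

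Levels between genes were compared as CPM per kb of exon, on RefSeq exon lengths. The full length was used also where exons overlap another locus. Opposite-strand loci share 536 bp with IAA3, 361 bp with IAA10, 784 bp with IAA13 and 826 bp with IAA32. The levels per kb of these genes are less certain, as the strand setting of the counting is not given. In wild type IAA16 (AT3G04730) was the most abundant Aux/IAA transcript, at 158 ± 8.33 CPM per kb (SD, n = 3), followed by IAA7 (AT3G23050) at 87.8 ± 2.64 and IAA8 (AT2G22670) at 82.1 ± 0.807. IAA2, IAA9 and IAA4 came next, at 81.8, 72.1 and 69.8 CPM per kb, and these 6 genes held 72.9% of the family's summed level. A middle group from IAA18 (27.1) down to IAA10 (3.12) followed, and IAA30, IAA34, IAA6, IAA31, IAA20, IAA33, IAA5, IAA15 and IAA32 were at 1.48 CPM per kb or less. In this order 15 of 28 neighbouring pairs overlapped in their wild-type libraries, among them IAA8 and IAA2, IAA9 and IAA4, and every pair from IAA14 down to IAA19, so their order is not resolved. ARF2 (AT5G62000) dominated its family at 85.0 ± 5.24 CPM per kb, or 43.6% of the summed ARF level, with ARF1 (AT1G59750) at 31.4 ± 0.801 and ARF6 (AT1G30330) at 15.3 ± 0.662. ARF7 followed at 10.13 CPM per kb, the wild-type libraries of neighbours from ARF5 (8.44) to ARF16 (6.71) overlapped, and ARF19 (6.11) and ARF17 (2.56) were lowest.

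**Figure D2:**
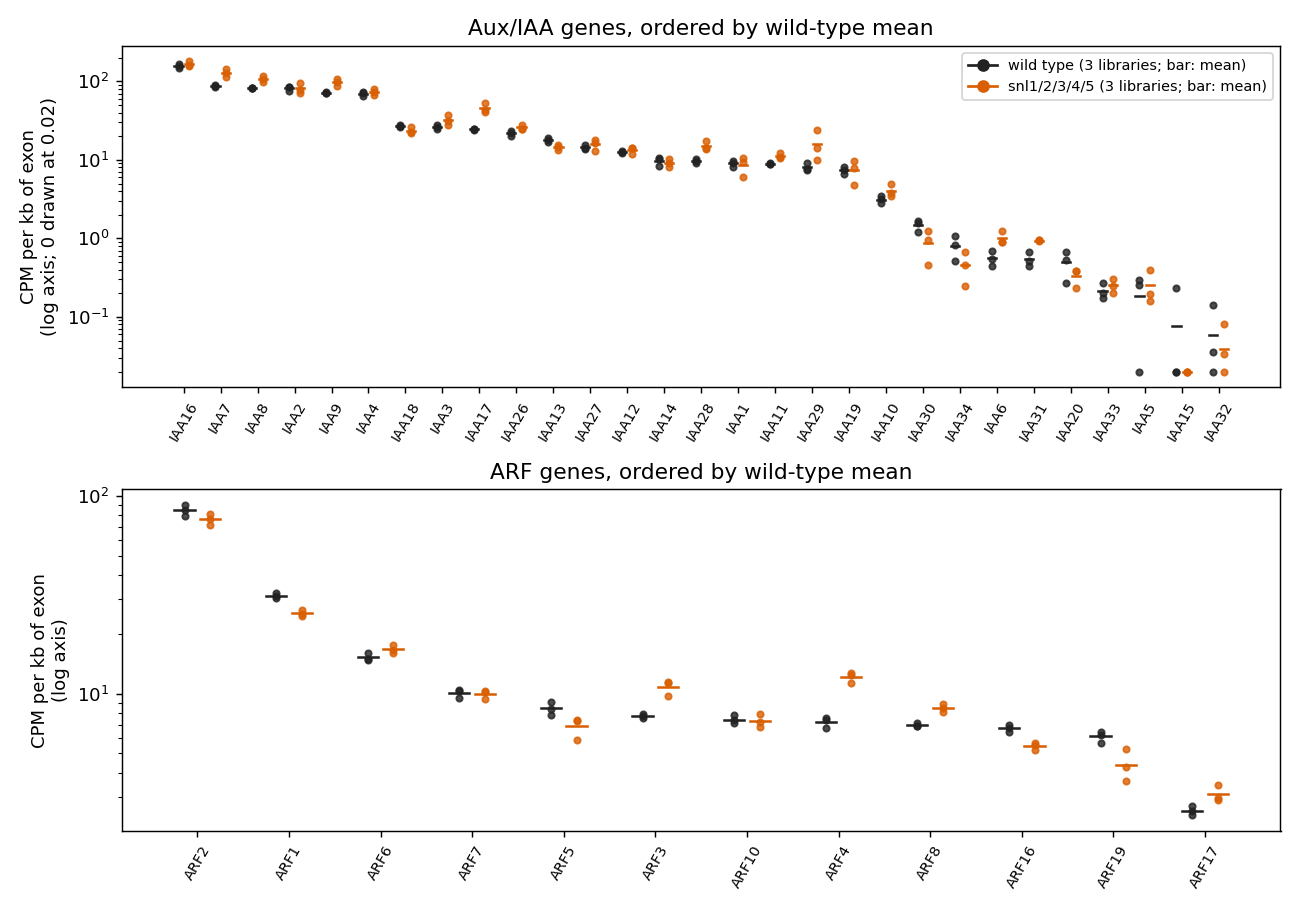
Level of every member as CPM per kb of exon on a log axis in the 3 wild-type and 3 mutant libraries (points) with group means (bars), ordered by wild-type mean. Aux/IAA genes span from 158 CPM per kb for IAA16 to 0.0592 for IAA32, while the 12 listed ARF genes span from 85.0 for ARF2 to 2.56 for ARF17.

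The summed Aux/IAA level was 772, 726 and 773 CPM per kb in wild-type replicates 1 to 3 and 993, 887 and 826 in mutant replicates 1 to 3. The groups did not overlap, and the mean went from 757 ± 26.9 to 902 ± 84.6 CPM per kb (SD, n = 3). The summed level of the 12 listed ARF genes was 195 ± 3.48 CPM per kb in wild type and 187 ± 6.12 in the mutant, with overlapping libraries. Within the Aux/IAA total, the share of IAA17 went from 3.26% ± 0.169 to 5.05% ± 0.302 and that of IAA7 from 11.6% ± 0.139 to 14.2% ± 0.300. The share of IAA16 went from 20.8% ± 0.515 to 18.4% ± 0.843 as the total rose. Its own level did not fall, at 158 CPM per kb in wild type and 165 in the mutant. Within the ARF total, ARF4 went from 3.72% ± 0.285 to 6.51% ± 0.565 and ARF3 from 3.97% ± 0.0769 to 5.80% ± 0.659. These shares are descriptions without a test.

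The degron decides which Aux/IAA proteins auxin can remove. Codons for its core of glycine, tryptophan and a proline pair were found in the longest RefSeq coding sequence of 23 of the 29 genes, and not in IAA20, IAA30, IAA31, IAA32, IAA33 or IAA34. All 9 called Aux/IAA genes have the core, but so do 21 of the 23 tested Aux/IAA genes, so the calls cannot tell the 2 kinds of gene apart. Of the other 2 tested genes, IAA31 passed the filter through the mutant libraries alone. IAA30 reached its cutoff in every wild-type library but not in every mutant library. The 6 genes without the core were low throughout, with wild-type levels from 0.0592 to 1.48 CPM per kb and 4 of them under the filter. The median of the 23 genes with the core was 14.6 CPM per kb. The coding DNA of the core and the next codon is shown for 4 genes that rose and for IAA13, which fell, with capitals over the core and the codon after it. The reading frame starts at the first base, on the coding strand of TAIR10.1.
IAA17: gttgtgGGATGGCCACCGGTGagatca
IAA7: gtggtgGGATGGCCACCTGTGaggaac
IAA28: gtggtgGGATGGCCGCCGGTGagatca
IAA29: gttgttGGATGGCCACCAGTAaaaaca
IAA13: gttgttGGATGGCCTCCTATAgggtca
In the first 4 the last capital codon encodes valine, and in IAA13 isoleucine, as it also does in IAA8, IAA11, IAA12 and IAA27. Of these other genes with isoleucine, IAA8 and IAA11 rose and IAA12 and IAA27 were not called, so the residue does not separate the directions.

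The strongest Aux/IAA call was IAA17 (AT1G04250, chromosome 1), also known as AXR3, the repressor whose stabilised form makes plants resistant to auxin. It had 32.3, 33.0 and 32.1 CPM in wild-type replicates 1 to 3 and 70.6, 56.5 and 53.5 CPM in mutant replicates 1 to 3. Every mutant library lay above every wild-type library. The gene rose 1.85-fold, a log2 fold change of 0.89 ± 0.11 (SE, adjusted p = 0.000862, edgeR quasi-likelihood test). IAA7 (AT3G23050, chromosome 3), also known as AXR2 and its close relative, had 172, 162 and 169 CPM in wild type and 276, 241 and 220 CPM in the mutant. It rose 1.46-fold (log2 0.55 ± 0.09, adjusted p = 0.00299), again with no overlap.

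IAA28 (AT5G25890, chromosome 5), which restrains lateral root formation, had 14.2, 12.7 and 13.4 CPM in wild type and 24.1, 19.7 and 18.9 CPM in the mutant. Its log2 fold change was 0.64 ± 0.11 (adjusted p = 0.00391), and the groups were apart. IAA8 (AT2G22670, chromosome 2) and IAA9 (AT5G65670, chromosome 5) are 2 abundant relatives with long amino-terminal parts, IAA9 being a regulator of leaf and vascular development. IAA8 had 167.1, 169.7 and 170.3 CPM in wild type and 223, 243 and 203 CPM in the mutant, a rise of 1.32-fold (log2 0.40 ± 0.08, adjusted p = 0.00645). IAA9 had 153, 151 and 159 CPM in wild type and 229, 213 and 187 CPM in the mutant, a rise of 1.36-fold (log2 0.44 ± 0.08, adjusted p = 0.00532). Neither pair of groups overlapped. The calls of IAA17, IAA7, IAA28, IAA8 and IAA9 were kept in all 13 alternative analyses.

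IAA29 (AT4G32280, chromosome 4), an Aux/IAA gene induced in shade and during hypocotyl elongation, had the largest log2 fold change among called Aux/IAA genes and the widest spread. It had 11.6, 9.91 and 9.56 CPM in wild type and 30.7, 18.1 and 12.6 CPM in the mutant. All mutant values were above all wild-type values, but mutant replicate 3 lay close to wild type. The log2 fold change was 0.98 ± 0.28 (adjusted p = 0.0286). The call did not hold when wild-type replicate 1, 2 or 3 was left out (adjusted p = 0.0661, 0.0765 and 0.078) or mutant replicate 2 (0.0613), in a range over the alternatives of 0.00255 to 0.078. Without mutant replicate 1 the log2 fold change was 0.57.

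IAA11 (AT4G28640, chromosome 4) had 11.6, 11.1 and 11.2 CPM in wild type and 15.5, 13.4 and 13.8 CPM in the mutant, with no overlap. It rose 1.25-fold (log2 0.33 ± 0.10, adjusted p = 0.0302, edgeR). IAA26 (AT3G16500, chromosome 3), named PAP1 in RefSeq, for phytochrome-associated protein, had 45.7, 42.1 and 47.9 CPM in wild type and 58.2, 51.5 and 51.6 CPM in the mutant. Its groups were apart as well, and it rose 1.19-fold (log2 0.25 ± 0.08, adjusted p = 0.0454). The IAA11 call did not hold when wild-type replicate 1, 2 or 3 was left out (adjusted p = 0.077, 0.0832 and 0.0811), without mutant replicate 1 (0.0733) and in DESeq2 (0.114), in a range of 0.0292 to 0.114. The IAA26 call did not hold when wild-type replicate 1, 2 or 3 was left out (0.113, 0.145 and 0.0585) or mutant replicate 1 or 2 (0.1 and 0.0709), when scaled by library totals (0.065), without a filter (0.0587) and in DESeq2 (0.0865), in a range of 0.0426 to 0.145. The mutant libraries were not alike: 7 of the 8 Aux/IAA genes that rose were highest in mutant replicate 1, and 6 were lowest in mutant replicate 3, the library with the most residual reads of SNL1 to SNL4. The part of the residual transcript in this spread was not tested.

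IAA13 (AT2G33310, chromosome 2), which with its close relative IAA12 (BODENLOS) restrains ARF5 in embryo and vascular patterning, was the single Aux/IAA gene that fell. It had 39.7, 37.3 and 41.7 CPM in wild type and 34.7, 32.3 and 29.6 CPM in the mutant. The groups did not overlap, and the gene fell 1.23-fold (log2 −0.30 ± 0.08, adjusted p = 0.0273, edgeR). The call did not hold when wild-type replicate 1 or 3 was left out (adjusted p = 0.0933 and 0.0899) and without mutant replicate 2 or 3 (0.0751 and 0.0538), in a range of 0.0186 to 0.0933. Its exons overlap those of AT2G33300 on the opposite strand over 784 bp, and because the strand setting of the counting is not given, its reads cannot be told apart from those of that locus there.

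**Figure D3:**
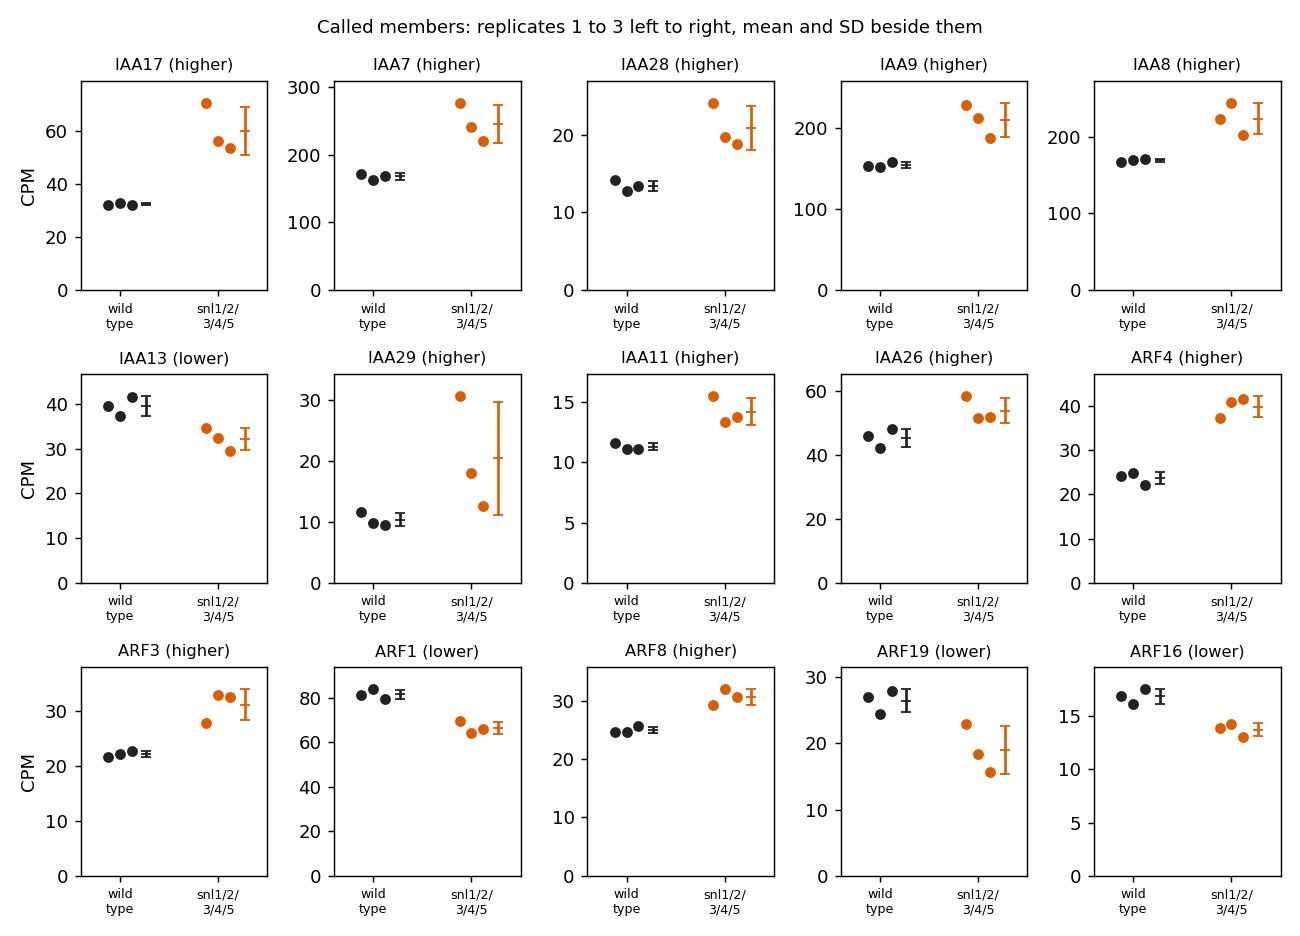
CPM of the 15 called members in replicates 1 to 3 of wild type and mutant (points, left to right) with the group mean and SD beside them, each vertical axis starting at 0. No panel shows overlapping groups; the mutant points of IAA29 run from 30.7 down to 12.6 CPM, while those of ARF4 lie between 37.2 and 41.5 CPM.

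The other 14 tested Aux/IAA genes did not pass the test. IAA16, the most abundant of the family, had 321, 302 and 335 CPM in wild type and 363, 318 and 323 CPM in the mutant (log2 0.07 ± 0.08, adjusted p = 0.543), and its libraries overlapped. IAA3 (SHY2), a repressor that balances auxin against cytokinin in the root, had a log2 fold change of 0.28 ± 0.11 (adjusted p = 0.0741). It passed without mutant replicate 3 (0.0194) within a range of 0.0194 to 0.196, and an opposite-strand locus overlaps 536 bp of its exons. IAA18 had −0.20 ± 0.08 (adjusted p = 0.0917) and passed without mutant replicate 3 (0.0183, range 0.0183 to 0.247). Values close to 0 were seen for IAA1 (−0.06), IAA2 (−0.01), IAA4 (0.08), IAA12 (0.08), IAA14 (−0.09) and IAA19 (0.03), all with overlapping libraries. IAA27 had 0.13 and IAA10 0.37 (adjusted p = 0.455 and 0.142), the latter with 361 bp of exon shared with an opposite-strand locus. The low genes IAA6, IAA31 and IAA30 had 0.84 ± 0.33, 0.77 ± 0.31 and −0.72 ± 0.35 (adjusted p = 0.079, 0.102 and 0.136). Over both families 13 of 23 tested Aux/IAA genes and 9 of 12 ARF genes had groups that did not overlap, beside 49.8% of all tested genes.

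The 6 Aux/IAA genes under the filter had few reads, and none was called when the fit was repeated without a filter (adjusted p between 0.218 and 0.843, edgeR). IAA34 had 8, 16 and 11 reads in wild-type libraries against 6, 4 and 9 in mutant libraries, giving a ratio of reads per total of 0.559 with an exact 95% Clopper-Pearson interval of 0.302 to 1.005. IAA20 had 10, 4 and 7 reads against 3, 6 and 5 (ratio 0.687, interval 0.323 to 1.42). IAA33 had 2, 3 and 2 against 2, 3 and 3, IAA5 had 3, 0 and 3 against 4, 2 and 2, and IAA32 had 4, 1 and 0 against 0, 1 and 2. IAA15 had 3 reads in wild-type replicate 2 and 0 elsewhere. IAA34 shares 125 bp of exon with AT1G15060 on the same strand, and IAA32 and IAA5 share 826 and 48 bp with opposite-strand loci. Reads in these stretches cannot be assigned to 1 locus with certainty. The intervals cover counting error only, and every one of the 6 held 1. A two-sided exact permutation test, which cannot go below 0.1 with 3 against 3 libraries, gave p between 0.2 and 1 for these genes.

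Of the 7 Aux/IAA pairs with at least 80% identity between coding sequences, IAA7 and IAA14 (82.0% identity) had log2 fold changes of 0.55 and −0.09, IAA12 and IAA13 (81.2%) had 0.08 and −0.30, and IAA18 and IAA26 (80.4%) had −0.20 and 0.25, in each pair with 1 member called. IAA1 and IAA2 (83.6%) and IAA3 and IAA4 (82.8%) had no called member. The differences within pairs were not tested. No Aux/IAA or ARF gene among the 41 shared 100 bp of exon at 95% identity with a locus elsewhere in the genome. Some members are chromosomal neighbours. IAA17 lies divergently from IAA3 on chromosome 1 with 6388 bp and 1 locus between them in TAIR10.1, IAA7 lies divergently from IAA2 on chromosome 3 at 12510 bp, and IAA1 and IAA14 face away from each other on chromosome 4 at 10732 bp. In the first 2 pairs the plus-strand gene was called and its neighbour was not, and on chromosome 4 neither was called.

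Among the ARF genes, ARF4 (AT5G60450, chromosome 5) and ARF3 (AT2G33860, chromosome 2, ETTIN) rose most. These 2 factors specify the lower leaf side and hasten adult leaf traits. ARF4 had 24.2, 24.8 and 22.1 CPM in wild type and 37.2, 40.8 and 41.5 CPM in the mutant. It rose 1.68-fold with no overlap (log2 0.75 ± 0.08, adjusted p = 0.000608, edgeR), the smallest adjusted p of all 35 tested members. ARF3 had 21.7, 22.2 and 22.8 CPM in wild type and 27.9, 33.1 and 32.6 CPM in the mutant. It rose 1.404-fold, also without overlap (log2 0.49 ± 0.09, adjusted p = 0.0043). Unlike the 8 Aux/IAA genes that rose, both had their lowest mutant value in mutant replicate 1. Both calls held in all 13 alternatives.

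ARF8 (AT5G37020, chromosome 5), an activator that acts with ARF6 in stamen and fruit growth, had 24.6, 24.7 and 25.6 CPM in wild type and 29.2, 31.9 and 30.6 CPM in the mutant. It rose 1.23-fold with groups apart (log2 0.29 ± 0.07, adjusted p = 0.0164, edgeR). The call did not hold when wild-type replicate 1 or 2 was left out (adjusted p = 0.0722 and 0.0539) and without mutant replicate 2 (0.0599), in a range of 0.0153 to 0.0722. ARF6 had 61.1, 65.2 and 60.2 CPM in wild type and 71.4, 67.5 and 65.7 CPM in the mutant. Its groups did not overlap either, but it did not pass (log2 0.13 ± 0.07, adjusted p = 0.163).

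The 3 ARF genes that fell belong to different classes. ARF1 (AT1G59750, chromosome 1), a repressor, had 81.4, 83.8 and 79.7 CPM in wild type and 69.4, 64.4 and 65.8 CPM in the mutant. It fell 1.23-fold with no overlap (log2 −0.30 ± 0.06, adjusted p = 0.0095), in all 13 alternatives. ARF19 (AT1G19220, chromosome 1), an activator that acts with ARF7 in lateral root formation, had 26.9, 24.5 and 27.9 CPM in wild type and 22.9, 18.5 and 15.7 CPM in the mutant. It fell 1.39-fold (log2 −0.47 ± 0.13, adjusted p = 0.0256), with groups apart. ARF16 (AT4G30080, chromosome 4), which with ARF10 directs root cap development, had 16.9, 16.2 and 17.5 CPM in wild type and 13.9, 14.2 and 13.1 CPM in the mutant. It fell with groups apart (log2 −0.29 ± 0.08, adjusted p = 0.0286). The ARF19 call did not hold when wild-type replicate 1 or 3 was left out (adjusted p = 0.0866 and 0.0715) and mutant replicate 2 (0.0888), in a range of 0.00528 to 0.0888. The ARF16 call did not hold when wild-type replicate 1 or 3 was left out (0.0992 and 0.0891), without mutant replicate 2 or 3 (0.0599 and 0.0602) and in DESeq2 (0.119), in a range of 0.0283 to 0.119.

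The other ARF genes did not pass. ARF2, a repressor that limits organ growth and promotes leaf ageing, had 331, 308 and 349 CPM in wild type and 312, 297 and 277 CPM in the mutant (log2 −0.16 ± 0.08, adjusted p = 0.156), with overlapping groups. ARF5 (MONOPTEROS), the activator of vascular and flower initiation, had −0.30 ± 0.11 (adjusted p = 0.0627) with groups apart. ARF7 had −0.02 ± 0.07 and ARF10 −0.02 ± 0.09, both with overlapping libraries, and ARF17 had 0.29 ± 0.12 (adjusted p = 0.0919).

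Several ARF transcripts are cut or silenced by small RNAs, so the matching sequences are shown beside the values. In background, miR160 acts on ARF10, ARF16 and ARF17, miR167 on ARF6 and ARF8, and small RNAs cut from the TAS3 transcript act on ARF2, ARF3 and ARF4. The mature miRNAs below come from the RefSeq annotation with the seed, bases 2 to 8, in capitals, and the guide from TAS3 is the 21-base stretch of that 947-base locus with the fewest mismatches summed over ARF3 and ARF4.
miR160a-5p: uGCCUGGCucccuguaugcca
miR167a-5p: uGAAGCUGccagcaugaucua
TAS3 stretch: tttcttgaccttgtaagaccc
Sites with at most 5 mismatches were found in 8 of the 12 ARF transcripts, those named above, and each lies in coding sequence. They are given as DNA of the transcript strand, with capitals on bases complementary to the guide and G:U pairs counted as mismatches. ARF3 and ARF4 each hold 2 sites of the TAS3 stretch and ARF2 holds 1; the site of each with the fewest mismatches is shown.
ARF3: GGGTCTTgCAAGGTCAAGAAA
ARF4: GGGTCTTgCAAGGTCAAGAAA
ARF2: GGGTCTTgCAAGGTCAAGAAt
ARF8: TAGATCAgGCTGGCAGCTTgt
ARF6: gAGATCAgGCTGGCAGCTTgt
ARF17: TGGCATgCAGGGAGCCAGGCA
ARF10: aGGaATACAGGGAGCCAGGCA
ARF16: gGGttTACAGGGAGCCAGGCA
The sites shown for ARF3 and ARF4 are identical, with 1 mismatch each, and their other sites have 2, as has that of ARF2. Because the stretch was chosen on ARF3 and ARF4, their lower mismatch count follows from that choice and is not compared with the calls.

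The loci that give rise to these small RNAs were mostly too low to test. Of 10 listed loci, 3 passed the filter, TAS3, MIR167D and MIR167A, and these rose, where 18.3% of all tested genes did. MIR167A reached the filter's cutoff in every mutant library, where it was high, but not in every wild-type library, so the count is not read against that share. TAS3 had 15.6, 15.5 and 13.2 CPM in wild type and 18.7, 20.8 and 19.4 CPM in the mutant (log2 0.41 ± 0.10, adjusted p = 0.0132, edgeR). MIR167D had 3.84, 3.44 and 2.43 CPM in wild type and 12.4, 11.2 and 6.88 CPM in the mutant, with groups apart (log2 1.64 ± 0.25, adjusted p = 0.00222). MIR167A had 11, 8 and 6 reads in wild-type libraries against 16, 23 and 19 in mutant libraries (log2 1.25 ± 0.28, adjusted p = 0.011). Of the genes with a site of the TAS3 stretch, ARF3 and ARF4 rose as TAS3 did, while ARF2 had a log2 fold change of −0.16 and was not called. Of those with a miR167 site, ARF8 rose as MIR167D did, and ARF6 had 0.13 and was not called. Whether the small RNAs have a part in these values was not tested. The counts are of reads at the loci and not of mature small RNAs. The TAS3 call was lost without mutant replicate 2 (adjusted p = 0.0548, range 0.013 to 0.0548) and the MIR167A call in DESeq2 (0.0545, range 0.0105 to 0.0545). MIR160A, MIR160B, MIR160C, MIR167B and MIR390A were under the filter, and MIR167C and MIR390B had 0 reads.

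**Figure D4:**
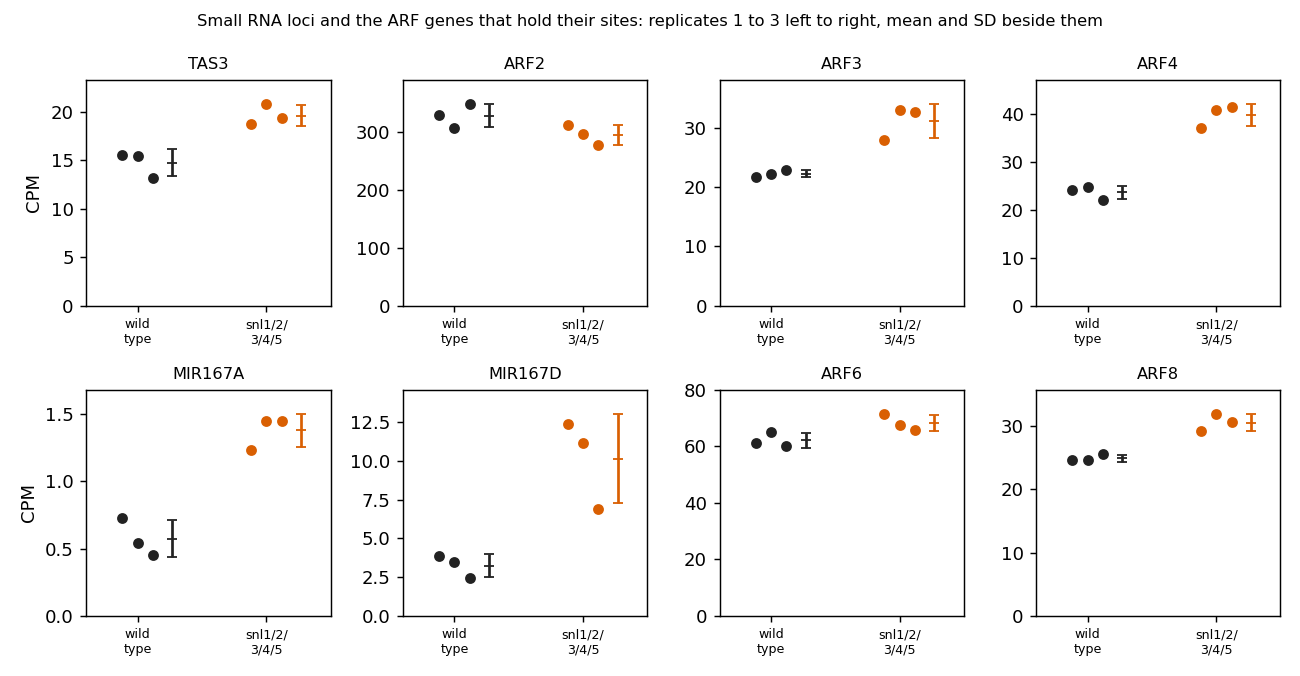
CPM of TAS3, MIR167A and MIR167D and of ARF genes that hold sites for their small RNAs, in replicates 1 to 3 of each group (points, left to right) with mean and SD, each vertical axis starting at 0. TAS3, ARF3 and ARF4 are higher in every mutant library than in any wild-type library, as are MIR167A, MIR167D, ARF6 and ARF8, while ARF2 overlaps between groups.

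Genes upstream and downstream of both families were counted from further lists. Of 6 auxin receptors none rose and 1 fell, a share of 16.7% beside the 16.5% of all tested genes called lower. AFB1 had 68.7, 70.2 and 69.4 CPM in wild type and 64.3, 50.6 and 54.1 CPM in the mutant. It fell 1.23-fold (log2 −0.30 ± 0.09, adjusted p = 0.0351, edgeR), and its 3 mutant libraries lay below the 3 wild-type ones. Of 5 TOPLESS co-repressor genes none rose and 2 fell, beside 18.3% and 16.5% of all tested genes. TPR2 had 86.8, 89.3 and 89.5 CPM in wild type and 67.7, 63.4 and 63.5 CPM in the mutant (log2 −0.45 ± 0.06, adjusted p = 0.00165), and TPR3 had a log2 fold change of −0.50 ± 0.15 (adjusted p = 0.0328). The AFB1 call did not hold when wild-type replicate 1, 2 or 3 was left out (adjusted p = 0.0956, 0.088 and 0.0811) or mutant replicate 2 or 3 (0.117 and 0.0718, range 0.00502 to 0.117). The TPR3 call did not hold when wild-type replicate 1 or 2 was left out (0.125 and 0.074) or mutant replicate 2 (0.0823, range 0.015 to 0.125). Both genes overlap opposite-strand loci. Of 3 tested further ARF genes, ARF9, ARF11 and ARF18, none was called (adjusted p = 0.949, 0.0607 and 0.0502), and the other 8 of that list, of which ARF15, ARF20, ARF21 and ARF22 are near-identical copies of one another, were under the filter.

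GH3 and SAUR genes, which lie outside both families, were counted too. GH3 enzymes attach amino acids to auxin, and of 7 tested genes 1 rose, 1 fell and 5 did not pass, 14.3% each way and near the 18.3% and 16.5% of all tested genes, with 3 lower when mutant replicate 1 was left out. GH3.2 had 15.0, 13.0 and 16.2 CPM in wild type and 6.81, 4.53 and 5.05 CPM in the mutant, a fall with groups far apart (log2 −1.43 ± 0.16, adjusted p = 0.000688, edgeR). GH3.9 had 3.44, 4.32 and 3.64 CPM in wild type and 5.80, 6.67 and 7.80 CPM in the mutant (log2 0.83 ± 0.17, adjusted p = 0.00664). The SAUR genes encode small auxin-induced proteins of cell expansion, and of 15 tested genes with a SAUR symbol in RefSeq 7 rose (46.7%, beside 18.3% of all tested genes), none fell (beside 16.5%) and 8 did not pass. Only the 16 loci named SAUR with a number in RefSeq were counted, so the list may be incomplete. The 7 are not separate observations: SAUR20, SAUR22, SAUR23 and SAUR24 lie close together (AT5G18020 to AT5G18080), and SAUR63 and SAUR68 are near-identical copies. The groups of SAUR63 and SAUR22 overlapped although both were called. SAUR20 had 2.98, 2.16 and 3.79 CPM in wild type and 7.58, 5.35 and 4.90 CPM in the mutant (log2 1.00 ± 0.25, adjusted p = 0.0153). SAUR23 and SAUR24 had log2 fold changes of 0.86 ± 0.23 and 0.95 ± 0.26 (adjusted p = 0.0209 and 0.0226). Leaving out wild-type replicate 1, wild-type replicate 2, mutant replicate 1 or mutant replicate 2 gave 1 call in place of 7, and there were 3 without wild-type replicate 3, and 4 in DESeq2. SAUR20, SAUR23 and SAUR24 were highest in mutant replicate 1 and lowest in mutant replicate 3. Without wild-type replicate 1 the SAUR20 call was lost (0.0549), and SAUR23 lost its call when wild-type replicate 2, wild-type replicate 3, mutant replicate 1 or mutant replicate 2 was left out (0.0605, 0.0647, 0.0539 and 0.0801). SAUR24 lost its call when wild-type replicate 1, wild-type replicate 2, mutant replicate 1 or mutant replicate 2 was left out (0.0889, 0.0692, 0.0584 and 0.0799).

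In the 250 bases before each gene's RefSeq start, on either strand, the auxin response element TGTCTC was present in 9 of 29 Aux/IAA and 1 of 12 ARF genes, beside 10.9% of 26711 nuclear protein-coding genes. The variant TGTCGG was present in 6 and 2 genes, beside 4.16%, and the G-box CACGTG in 4 and 0, beside 6.58%. Of the 8 Aux/IAA genes that rose, IAA8 held TGTCTC and IAA7 held CACGTG, and the other 6 held none of the 3 motifs in this window. Of the 3 ARF genes that rose, ARF3 held TGTCTC and ARF4 and ARF8 held none of the 3. A match is a description and not a binding site. The window of IAA7, the second strongest Aux/IAA call, is shown with the match in capitals, at chr3:8194356-8194605 on the plus strand of TAIR10.1.
IAA7 upstream: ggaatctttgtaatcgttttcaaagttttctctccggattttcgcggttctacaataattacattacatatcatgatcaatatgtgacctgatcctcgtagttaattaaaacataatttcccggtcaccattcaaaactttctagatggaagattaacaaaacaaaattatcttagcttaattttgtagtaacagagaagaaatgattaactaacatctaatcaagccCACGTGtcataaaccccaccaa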

How the data were processed

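The deposited files hold raw counts, 1 whole number of reads for each locus in each library, together with 2 tables of the authors with a log2 fold change and an adjusted p-value. The tools were TopHat, HTSeq, edgeR and cutadapt 1.4 with the TAIR10 build, per the submitters' processing notes, without roles or a strand setting. There were 24 columns of values per library in those tables that were not used.

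Genes were filtered with filterByExpr (minimum count 10, minimum total 15), scaled by TMM and tested with edgeR 4.0.16 (quasi-likelihood, group as the single term, R 4.3.3) over 19591 genes, adjusted by the Benjamini-Hochberg method, called at 0.05. CPM uses TMM-scaled totals. The members and lists were chosen with earlier results of these data known. Values per library are given for each called member, the 3 highest of each family per kb and members under the filter, and up to 3 called genes of each other list are named; other named values were chosen after being seen. Exon lengths and sequences come from RefSeq TAIR10.1, which matched 32835 of 33602 loci; proteins are not printed. Copies were searched with BLAST+ 2.17.0, coding sequences aligned with Biopython 1.88. Alternatives were DESeq2 1.42.0 (its default run, or its size factors), library totals, no filter, 1 CPM in 3 libraries, limma-voom (limma 3.58.1), replicate number as a block, and leaving out each library. The fit was tested on simulated counts with known changes. Of 19444 genes fitted there, 66 were changed 1.5-fold, 66 were changed 2-fold and 65 were changed 4-fold. The fit recovered 54.55% of 1.5-fold, 93.9% of 2-fold and 100% of 4-fold changes, with 6 unchanged genes called. In the data a far larger share, 34.8% of all tested genes, was called. Whether the recovered shares hold for the data was not tested. A member that did not pass is not shown to be unchanged.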

Additional observations from a re-analysis of the deposited data

How the results depend on the processing

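Of the 15 called members, 8 kept their call and direction in all 13 alternatives (IAA7, IAA8, IAA9, IAA17, IAA28, ARF1, ARF3 and ARF4), and none of the 15 changed sign. Leaving out single libraries gave 5 to 9 higher and 0 to 1 lower Aux/IAA genes, 2 to 3 higher and 1 to 3 lower ARF genes, 2290 to 3806 higher and 1757 to 3511 lower genes over all, 1 to 9 higher SAUR genes, 2 to 3 higher small RNA loci, 1 to 3 lower TOPLESS genes, 1 to 3 lower GH3 genes and 0 to 1 lower auxin receptors. The default DESeq2 run gave 4 higher SAUR genes. Same-numbered libraries of the groups did not deviate together (r = 0.014, 0.15 and −0.056), so the numbers were not taken as pairs; with the replicate block there were 0 lower Aux/IAA genes and 2 higher SAUR genes, and in the families the calls of IAA11, IAA13, IAA26 and ARF16 were lost (adjusted p = 0.0523, 0.0522, 0.0599 and 0.0691, edgeR) and those of IAA3 and ARF5 gained. Uncalled values near 0 changed sign: IAA19 with limma-voom (−0.019), and, without single libraries, IAA1 (−0.22 to 0.14), IAA2 (−0.14 to 0.076), IAA19 (−0.19 to 0.25), ARF7 (−0.054 to 0.024) and ARF10 (−0.080 to 0.031). The cause of these shifts was not tested, beyond the smaller number of libraries. Low counts leave wide intervals for the 6 Aux/IAA genes under the filter, and 3 against 3 libraries keep the exact permutation p at 0.1 or above.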
